A study of Mus musculus with 16 samples.

Results

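Proximal and distal mouse colon organoids in which Cdx2 had been targeted were compared in medium with Wnt. The comparison used the 4 libraries of Cdx2-sgRNA organoids in WENR-plus medium, 2 of proximal and 2 of distal origin, chosen by the region, guide and medium in their titles from the 16 libraries of the series. Organoids came from 2 independent female mice of 8 weeks, with proximal cultures from the first and distal cultures from the last 1.0 cm of the colon. All groups, controls included, carried heterozygous alleles of a Cre-inducible Braf strain, B6.129P2(Cg)-Braftm1Mmcm/J, and of a Cre-inducible tdTomato reporter at the ROSA26 locus. No step that delivers Cre is given for these libraries in the sources used here. Organoids received Cas9 and the guide in 1 lentiviral vector, lentiCRISPR v2-Blast, and were selected with antibiotic for 2 weeks. Each Cdx2-sgRNA culture grew from 1 single clone with frameshifts in both alleles, whereas no cloning is described for the Scramble-sgRNA organoids, which served as the guide control. A property of a clone and of its region can therefore not be told apart within 1 culture, and 2 clones stood for each region. For the same reason the guide and single-cell cloning cannot be told apart between Cdx2-sgRNA and Scramble-sgRNA organoids. Cultures in their 4th month were kept for 2 days in WENR-plus medium, followed by 3 days either in the same medium, which supplies Wnt3a, EGF, Noggin and R-spondin 1, or in WENR-minus, without any of the 4. The most similar comparisons, used to show where these 4 libraries differ, were proximal against distal Scramble-sgRNA organoids in WENR-plus, and the same Cdx2-sgRNA cultures in WENR-minus.

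Cdx2 is a homeodomain factor that sets and keeps intestinal identity in the epithelium of the gut, together with its paralog Cdx1 and with factors such as Hnf4a. Wnt ligands and R-spondin sustain the stem cells at the crypt base, whose daughters become absorptive colonocytes or, when Notch signalling is low and Atoh1 is on, goblet, enteroendocrine and other secretory cells. Hox genes carry positional information along the gut, and regional expression in the colon persists in organoid culture.

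The 4 libraries held between 15806729 and 17634440 estimated read counts, of which 21.9% to 28.0% were mitochondrial ribosomal RNA, the most in proximal replicate 1. Levels are given in CPM, the counts scaled to library size by edgeR, proximal and distal stand for the Cdx2-sgRNA WENR-plus libraries unless another group is named, and each pair of values is replicate 1 and replicate 2. The labelled cell type was checked on its markers: Epcam, an adhesion molecule of epithelium, was at 574 and 574 CPM in proximal and 1033 and 899 CPM in distal libraries, and the E-cadherin gene Cdh1 at 682 and 535 against 994 and 961 CPM. Of 16 mesenchymal markers 5 passed the filter on low counts, and the collagen genes Col1a1 and Col1a2 were at 0.406 and 0.264 CPM and at 0.0580 and 0.106 CPM in proximal libraries and at 0 CPM in both distal libraries. The summed level of the mesenchymal list was 139.6 and 37.5 CPM in proximal and 21.2 and 14.5 CPM in distal libraries, and in the proximal libraries most of it came from fibronectin (Fn1), which epithelial cells also make. For 16 immune markers the sums were 15.1 and 6.72 against 10.03 and 4.81 CPM, with the leukocyte gene Ptprc at 0.0580 and 0 against 0.229 and 0.212 CPM. For 12 endothelial and neural markers they were 1.45 and 1.74 against 5.22 and 1.75 CPM, with Pecam1 at 0 and 0 against 0.172 and 0.212 CPM.

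The guide is shown because it marks what was cut in every library compared. Its last 20 bases matched the first of 3 exons of transcript Cdx2-201, in the coding sequence, at chr5:147306485-147306504 on the minus strand of GRCm38 (mm10), and the capitals mark the adjacent NGG motif that Cas9 needs.
Cdx2-sgRNA target: agcggcgaaacctgtgcgagTGG
The cut that Cas9 makes close to this motif falls after base 495 of 933 of the coding sequence, so that the transcript can still be made and counted after a frameshift. The 4 Cdx2-sgRNA libraries all held Cdx2 reads, 515 and 630 in proximal and 1086 and 949 in distal libraries, which does not check the loss of the protein. This was 29.9 and 33.3 CPM in proximal and 62.3 and 50.2 CPM in distal libraries, against 142 and 127 CPM in proximal and 76.8 and 67.9 CPM in distal Scramble-sgRNA organoids. Both proximal Cdx2-sgRNA libraries were the lowest of the 8 WENR-plus libraries. The difference between the regions within Cdx2-sgRNA organoids (log2 fold change −0.83, SE 0.20, adjusted p = 0.0104) missed the threshold on size.

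Across the transcriptome, proximal and distal Cdx2-sgRNA organoids differed in 2595 of 15289 tested genes, 17.0% of them (edgeR's quasi-likelihood test, called at a Benjamini-Hochberg adjusted p below 0.05 with a fold change of more than 2 in either direction). In proximal organoids 1132 genes (7.40%) were higher and 1463 (9.57%) were lower. Counts of called members in the gene lists below are to be read beside these shares. The same call between proximal and distal Scramble-sgRNA organoids held for 267 genes (1.75%), of which 104 (0.680%) were higher and 163 (1.07%) lower in proximal organoids. This count was 80 to 138 with 1 of the 4 Scramble-sgRNA libraries left out, 538 with DESeq2 and 1039 with no filter on low counts. Of the 1463 lower genes 1363 were protein-coding, and of the 1132 higher genes 850 were. These counts were not set beside the share of protein-coding genes among all tested genes. The median log2 fold change over all tested genes was −0.006. Scaling by the upper quartile in place of TMM moved that median to 0.17 and gave 1518 higher and 1178 lower genes, so the balance of directions rests on the scaling. Without distal replicate 1, 1586 genes were called.

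**Figure D1:**
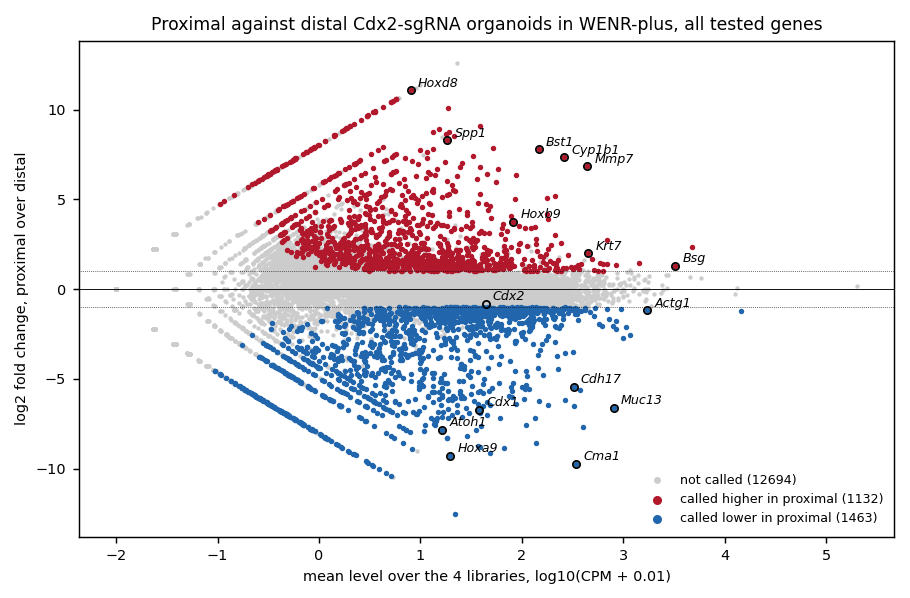
Log2 fold change of proximal over distal Cdx2-sgRNA organoids in WENR-plus against the mean level over the 4 libraries, log10(CPM + 0.01), for each of 15289 tested genes; red and blue points were called higher (1132) and lower (1463) in proximal organoids, dotted lines mark a log2 fold change of 1 and −1, and circles mark named genes. Lower calls such as Muc13 and Cdh17 reach high levels, and Cdx2 lies among the genes that were not called.

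The proximal libraries stood apart from the rest of the WENR-plus libraries more often than the distal ones. Over all tested genes, both proximal libraries were below the 6 other WENR-plus libraries in 24.6% of genes and above them in 19.8%, whereas both distal libraries were below the 6 others in 5.11% and above them in 5.87%. Among the 1463 lower calls the proximal pair was below all 6 others for 1241 (84.8%), and the distal pair was above all 6 others for 242 (16.5%). Among the 1132 higher calls the proximal pair was above all 6 others for 953 (84.2%) and the distal pair below them for 184 (16.3%). Groups called on these libraries are separated by the call itself, so these shares describe which side lay outside the Scramble-sgRNA levels and are not tested.

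Part of the transcription factors of intestinal identity were lower in proximal organoids. Of 25 tested intestinal transcription factors, 14 fell and none rose in proximal relative to distal organoids, with a median log2 fold change of −1.45 beside −0.006 over all genes. Between proximal and distal Scramble-sgRNA organoids the median was −0.17. Cdx1, the paralog that acts beside Cdx2, was measured at 0.928 and 0.476 CPM in proximal and 80.4 and 68.7 CPM in distal libraries (log2 fold change −6.73, SE 0.30, adjusted p = 2.16e-07). The distal libraries lay within the range of the Scramble-sgRNA libraries, 71.0 and 66.8 CPM in proximal and 95.4 and 79.9 CPM in distal organoids, and the proximal ones near 0. Hnf4a, the nuclear receptor that drives enterocyte genes with Cdx2, was at 65.8 and 31.4 CPM in proximal and 394 and 348 CPM in distal libraries (log2 fold change −2.93, SE 0.31, adjusted p = 8.05e-05). Its proximal Scramble-sgRNA level was 254 and 249.7 CPM.

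Nr5a2, a nuclear receptor of the crypt also known as Lrh-1, was at 0.406 and 0.529 CPM in proximal and 17.0 and 22.7 CPM in distal libraries (log2 fold change −5.38, SE 0.25, adjusted p = 2.67e-07). Isx, an intestine-specific homeobox gene that limits vitamin A uptake, was at 1.28 and 1.06 CPM in proximal and 16.9 and 20.8 CPM in distal libraries (log2 fold change −4.01, SE 0.24, adjusted p = 1.34e-06). Here both regions were below Scramble-sgRNA organoids, which held 197 and 180.3 CPM (proximal) and 152 and 141 CPM (distal). The vitamin D receptor gene Vdr was at 1.16 and 3.60 CPM in proximal and 66.7 and 34.0 CPM in distal libraries (log2 fold change −4.39, SE 0.44, adjusted p = 5.67e-05). The xenobiotic receptor gene Nr1i2 was at 2.67 and 1.90 CPM in proximal and 24.2 and 24.4 CPM in distal libraries (log2 fold change −3.41, SE 0.27, adjusted p = 9.38e-06). Smaller differences were found for the pioneer factor Foxa1 (log2 fold change −1.45, SE 0.16, adjusted p = 0.00013) and for Klf5, a zinc finger factor of proliferating crypt cells (log2 fold change −1.28, SE 0.15, adjusted p = 0.000178). For each of these factors the highest proximal library was below the lowest distal library, and every call held without any 1 of the 4 libraries.

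Since members of the Cdx and posterior Hox families bind A- and T-rich sites, promoters were searched for the letters TTTATNG on both strands, a caudal-type motif. RefSeq promoters (GRCm38.p6) of 300 bases, from 250 bases before to 50 bases after a start, matched 10549 of 15275 tested symbols. Among genes with a matched promoter, the motif lay in 10.51% of the 1085 genes lower in proximal organoids, 9.24% of the 736 higher genes, 8.27% of the 8728 genes not called and 12.53% of all genes in the promoter table. The form CTATAAA overlaps the TATA box, and without it the shares were 7.37%, 6.25%, 5.6% and 8.78%. A match is a description of the letters in this window and is no binding site. Promoters of 4 genes described here are shown as examples with a match, 2 lower and 2 higher in proximal organoids, with the matches in capitals: Agr2 of goblet cells at chr12:35992675-35992974, Cyp2c55 of colonocytes at chr19:39006769-39007068, Hoxb8 at chr11:96281655-96281954 and Mmp7 at chr9:7691840-7692139, all on the plus strand.
Agr2 promoter: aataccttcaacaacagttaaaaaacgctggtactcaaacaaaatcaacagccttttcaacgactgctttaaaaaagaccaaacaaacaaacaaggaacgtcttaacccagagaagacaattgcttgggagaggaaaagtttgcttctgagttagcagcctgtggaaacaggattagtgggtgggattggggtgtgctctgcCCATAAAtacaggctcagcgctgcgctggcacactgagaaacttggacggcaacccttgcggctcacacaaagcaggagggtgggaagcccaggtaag
Cyp2c55 promoter: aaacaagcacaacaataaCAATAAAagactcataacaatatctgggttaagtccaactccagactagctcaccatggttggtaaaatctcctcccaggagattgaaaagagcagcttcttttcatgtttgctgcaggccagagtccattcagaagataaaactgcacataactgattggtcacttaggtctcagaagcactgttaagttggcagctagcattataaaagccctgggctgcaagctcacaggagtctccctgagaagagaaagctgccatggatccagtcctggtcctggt
Hoxb8 promoter: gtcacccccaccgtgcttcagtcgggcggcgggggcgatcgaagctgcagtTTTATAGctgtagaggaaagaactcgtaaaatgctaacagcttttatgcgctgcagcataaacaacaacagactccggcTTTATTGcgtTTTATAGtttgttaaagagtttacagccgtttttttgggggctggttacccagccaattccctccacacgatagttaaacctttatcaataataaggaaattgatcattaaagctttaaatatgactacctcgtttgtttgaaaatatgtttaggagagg
Mmp7 promoter: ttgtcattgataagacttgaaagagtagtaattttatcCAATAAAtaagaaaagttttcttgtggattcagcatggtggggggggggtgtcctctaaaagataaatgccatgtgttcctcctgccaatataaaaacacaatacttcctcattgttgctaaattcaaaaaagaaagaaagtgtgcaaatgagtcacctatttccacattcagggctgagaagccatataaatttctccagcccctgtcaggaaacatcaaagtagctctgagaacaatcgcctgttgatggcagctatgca
Hoxb8 held 3 matches and the other promoters 1 each, and the table lists another start of Mmp7 whose window held none.

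Part of the genes of absorptive cells were lower in proximal organoids. Of 45 tested colonocyte genes 25 fell and 4 rose, with a median log2 fold change of −2.22, or −2.13 with members at the read floor set to their bound. In the Scramble-sgRNA comparison 3 members fell and none rose. Of higher calls in this list, 0 were made without distal replicate 1 or proximal replicate 2 and 1 without distal replicate 2. Muc13, a transmembrane mucin of the colonocyte surface (chr16:33794037-33819934), was at 15.2 and 17.1 CPM in proximal and 1917 and 1256 CPM in distal libraries (log2 fold change −6.62, SE 0.31, adjusted p = 2.67e-07). Scramble-sgRNA organoids held 844 and 762 CPM (proximal) and 1201 and 1179.7 CPM (distal). Cdh17, the intestinal cadherin and a direct Cdx2 target (chr4:11758147-11817895), was at 16.2 and 13.1 CPM in proximal and 669 and 591 CPM in distal libraries (log2 fold change −5.43, SE 0.28, adjusted p = 4.3e-07). For both genes the proximal pair lay far below all other WENR-plus libraries. Car1, a carbonic anhydrase of colonocytes, was at 22.4 and 17.0 CPM in proximal and 520.4 and 343 CPM in distal libraries (log2 fold change −4.45, SE 0.41, adjusted p = 2.89e-05). Cyp2c55, a cytochrome P450 of the colon, was at 11.6 and 14.5 CPM in proximal and 278 and 271 CPM in distal libraries (log2 fold change −4.39, SE 0.19, adjusted p = 2.16e-07), with 245 and 257 CPM in proximal and 262 and 244 CPM in distal Scramble-sgRNA organoids. The distal Cdx2-sgRNA libraries thus held Cyp2c55 near the control level.

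The colonocyte genes that were higher in proximal organoids included Krt20, a keratin of differentiated surface cells, at 104 and 213 CPM in proximal and 25.1 and 30.8 CPM in distal libraries (log2 fold change 2.50, SE 0.56, adjusted p = 0.00729). Its call was lost without proximal replicate 2 (log2 fold change 1.89, adjusted p = 0.0548) and without distal replicate 1 (log2 fold change 2.41, adjusted p = 0.063). Of 30 tested small intestinal enterocyte genes 15 fell and none rose (median −2.97, or −1.90 with members at the read floor set to their bound, or −1.83 without distal replicate 1). Without proximal replicate 1, proximal replicate 2 or distal replicate 1 only 7 were called lower in each case. Cubn, a receptor for cobalamin and proteins, was at 0.754 and 1.43 CPM in proximal and 74.3 and 116 CPM in distal libraries (log2 fold change −6.42, SE 0.74, adjusted p = 0.000144). The glucose transporter gene Slc5a1 was at 0.580 and 0.264 CPM in proximal and 25.3 and 34.5 CPM in distal libraries (log2 fold change −6.14, SE 0.75, adjusted p = 0.000217). The bile acid transporter gene Slc10a2 was at 0.464 and 0.740 CPM in proximal and 33.4 and 18.3 CPM in distal libraries (log2 fold change −5.40, SE 0.52, adjusted p = 4.17e-05). Fabp2, a fatty acid binding protein named by the study as an enterocyte marker, was low throughout, at 0.812 and 0.740 CPM in proximal and 1.55 and 2.49 CPM in distal libraries (log2 fold change −1.37, SE 0.87, adjusted p = 0.254), and was not called. Of 11 tested markers that the study itself used, 2 were called higher and 3 lower (median −0.27, or −0.85 without proximal replicate 1 and 0.24 without proximal replicate 2); without distal replicate 1 or proximal replicate 2 none of them was called higher.

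Microvilli are held together by protocadherin links, which are part of the brush border list: 12 of 26 tested members fell and 1 rose (median −1.77). The link protocadherin gene Cdhr5 was at 2.49 and 2.64 CPM in proximal and 98.8 and 66.3 CPM in distal libraries (log2 fold change −5.0, SE 0.37, adjusted p = 5.82e-06). Its anchors, the scaffold gene Ush1c and the myosin gene Myo7b, were at 0.638 and 0.635 against 42.8 and 44.1 CPM (log2 fold change −6.08, SE 0.28, adjusted p = 2.67e-07) and 4.64 and 5.97 against 196 and 235 CPM (log2 fold change −5.34, SE 0.31, adjusted p = 1.13e-06). The proximal pair was below the lowest Scramble-sgRNA library in all 3 genes. Vil1, the actin bundler villin, was at 168 and 132 CPM in proximal and 228 and 245 CPM in distal libraries (log2 fold change −0.66, SE 0.19, adjusted p = 0.0237), in the same order but not called.

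Of 40 tested ion and water transport genes 19 fell and 5 rose (median −1.26), beside 6 lower and none higher in Scramble-sgRNA organoids. The higher calls numbered 2 without distal replicate 1 and 3 without proximal replicate 2. Some of the fallen genes were regional in the control too. The chloride and bicarbonate exchanger gene Slc26a3 was at 2.61 and 2.70 CPM in proximal and 62.1 and 39.5 CPM in distal libraries (log2 fold change −4.26, SE 0.35, adjusted p = 1.3e-05), and at 4.63 and 4.50 CPM in proximal and 95.8 and 58.9 CPM in distal Scramble-sgRNA organoids. Atp12a, the colonic proton pump, was at 5.10 and 4.76 CPM in proximal and 288 and 171 CPM in distal libraries (log2 fold change −5.54, SE 0.38, adjusted p = 4.16e-06), beside 4.59 and 4.02 CPM in proximal and 89.4 and 45.1 CPM in distal controls. The chloride channel gene Cftr followed another order, at 0.696 and 0.740 CPM in proximal and 32.2 and 66.1 CPM in distal libraries (log2 fold change −6.08, SE 0.70, adjusted p = 0.000156) with 159 and 146 CPM in proximal and 150.3 and 52.5 CPM in distal Scramble-sgRNA organoids. For Slc26a3 and Atp12a both proximal groups were low, whereas for Cftr the proximal control was not. Atp1b1, a subunit of the sodium pump, was at 269.6 and 249 CPM in proximal and 2142 and 1329.6 CPM in distal libraries (log2 fold change −2.74, SE 0.24, adjusted p = 1.86e-05). Slc12a7, a potassium and chloride cotransporter, was higher in proximal organoids, at 147 and 82.5 against 39.1 and 35.3 CPM (log2 fold change 1.62, SE 0.30, adjusted p = 0.00274). The 10 tested carbonic anhydrases included 1 higher and 3 lower gene calls (median 0.64, or −0.24 without proximal replicate 1, 0.41 without distal replicate 1 and 0.97 without distal replicate 2), with Car2 at 289.7 and 493 CPM in proximal and 1692 and 1734 CPM in distal libraries (log2 fold change −2.13, SE 0.29, adjusted p = 0.000488).

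Most of the goblet cell genes were lower in proximal organoids. Of 30 tested goblet cell genes 27 fell and none rose, with a median log2 fold change of −5.04, or −4.96 with members at the read floor set to their bound; 1 was lower and none higher between the Scramble-sgRNA regions. Without distal replicate 1 there were 18 lower calls and a median of −3.38, and there were 18 lower calls and 1 higher call without proximal replicate 2. In bulk RNA fewer goblet cells and less goblet RNA per cell cannot be told apart. Atoh1, the factor that commits cells to secretory fates (chr6:64729125-64731245), was at 0.116 and 0.159 CPM in proximal and 48.8 and 16.8 CPM in distal libraries (log2 fold change −7.81, SE 0.80, adjusted p = 6.58e-05). Spdef, which acts below Atoh1 in goblet cells, was at 0.580 and 1.37 CPM in proximal and 52.9 and 9.26 CPM in distal libraries (log2 fold change −4.97, SE 1.04, adjusted p = 0.00516). The secreted mucin gene Muc2 was at 3.89 and 4.55 CPM in proximal and 277 and 38.2 CPM in distal libraries (log2 fold change −5.22, SE 0.87, adjusted p = 0.00146), beside 153 and 375 CPM in proximal Scramble-sgRNA organoids. Every proximal library was below every distal library, but the distal replicates were far from each other.

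The summed level of the goblet cell list was 337 and 221 CPM in proximal, 6081 and 1485 CPM in distal, 1363 and 1994 CPM in proximal Scramble-sgRNA and 2904 and 1678 CPM in distal Scramble-sgRNA organoids. Distal replicate 1 was the highest of all 8 libraries, and without it the values for the proximal organoids were less extreme: Muc2 moved to a log2 fold change of −3.14 (adjusted p = 0.00509), Atoh1 to −6.81 (adjusted p = 0.000148) and Fcgbp to −4.19 (adjusted p = 0.000925). Fcgbp, a mucus protein that binds to Muc2, was at 13.3 and 17.2 CPM in proximal and 1188 and 286 CPM in distal libraries (log2 fold change −5.59, SE 0.73, adjusted p = 0.000345). Agr2, a disulfide isomerase needed to fold mucins, was at 11.1 and 3.17 CPM in proximal and 748 and 293 CPM in distal libraries (log2 fold change −6.19, SE 1.02, adjusted p = 0.00136). Spink4, a peptidase inhibitor of goblet cells, was at 5.45 and 2.49 CPM in proximal and 1359 and 226 CPM in distal libraries (log2 fold change −7.65, SE 1.21, adjusted p = 0.00108). The trefoil factor gene Tff3 was at 0.522 and 0.264 CPM in proximal and 65.1 and 26.1 CPM in distal libraries (log2 fold change −6.85, SE 0.91, adjusted p = 0.000373). The calls of these 4 genes held without any 1 library.

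Of 31 tested enteroendocrine genes 22 fell and none rose (median −6.20, or −4.34 with members at the read floor set to their bound), beside 3 lower in the Scramble-sgRNA comparison. Neurog3, the factor that starts endocrine differentiation, was at 0.290 and 0.0529 CPM in proximal and 42.1 and 11.3 CPM in distal libraries (log2 fold change −7.26, SE 0.90, adjusted p = 0.000238). The granule protein genes Chga and Chgb were at 0.348 and 0.264 against 49.98 and 31.6 CPM (log2 fold change −7.03, SE 0.42, adjusted p = 1.34e-06) and 0.580 and 0.423 against 61.1 and 59.2 CPM (log2 fold change −6.89, SE 0.50, adjusted p = 5.82e-06). Unlike the goblet genes, Chgb was at nearly the same level in both distal replicates. Pyy, a hormone of distal gut L cells, was at 0.116 and 0.264 CPM in proximal and 12.6 and 16.9 CPM in distal libraries (log2 fold change −6.20, SE 0.86, adjusted p = 0.000503), and 0.239 and 0.296 CPM was found in proximal Scramble-sgRNA organoids. The endocrine factor gene Neurod1 was at 0.0580 and 0 CPM in proximal and 9.63 and 4.07 CPM in distal libraries (a ratio of distal to proximal of 244, counting interval 43.3 to 9664, adjusted p = 0.000117). Its proximal total was within 3 reads, and the ratio covers counting error only.

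Of 11 tested genes of deep crypt secretory and Paneth cells, 7 fell and 1 rose (median −5.12). Kit, a receptor of deep crypt secretory cells, was at 0.696 and 0.687 CPM in proximal and 150.4 and 30.5 CPM in distal libraries (log2 fold change −7.01, SE 1.02, adjusted p = 0.000672). Pla2g2a, a phospholipase of Paneth cells, was at 0.0580 and 0.0529 CPM in proximal and 7.80 and 8.62 CPM in distal libraries (a ratio of distal to proximal of 149, counting interval 40.8 to 1234, adjusted p = 0.000365). The gene that rose was Mmp7, a metalloproteinase that Paneth cells of the small intestine make, described with the higher genes. Among 18 tested Notch and lineage genes 5 fell and 2 rose (median −0.53, or −0.32 without proximal replicate 1 and −0.35 without distal replicate 2). Jag1, a Notch ligand, was at 47.3 and 37.4 CPM in proximal and 14.8 and 14.7 CPM in distal libraries (log2 fold change 1.52, SE 0.29, adjusted p = 0.00288). Hes1, a Notch target that represses Atoh1, was at 29.9 and 40.8 CPM in proximal and 30.0 and 40.0 CPM in distal libraries (log2 fold change 0.011, SE 0.26, adjusted p = 0.984) without a call. Notch3 was called higher in proximal organoids (log2 fold change 2.09, SE 0.60, adjusted p = 0.0232) and lost its call without proximal replicate 1 (adjusted p = 0.0685), proximal replicate 2 (adjusted p = 0.0589) or distal replicate 1 (adjusted p = 0.136). Of 8 tested tuft cell genes 4 rose and 1 fell (median 1.01). Of the higher calls 2 were made without distal replicate 1 and 2 without proximal replicate 2. The tuft cell factor gene Pou2f3 and the channel gene Trpm5, which define that cell, were at 0 and 0.370 CPM and at 0.696 and 0.264 CPM in proximal and at 0 and 0 CPM and at 0 and 0.0529 CPM in distal libraries. Ptgs1, a prostaglandin synthase of tuft cells and of other cells, was at 45.3 and 27.1 CPM in proximal and 0.344 and 0.741 CPM in distal libraries (log2 fold change 6.03, SE 0.50, adjusted p = 1.52e-05).

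**Figure D2:**
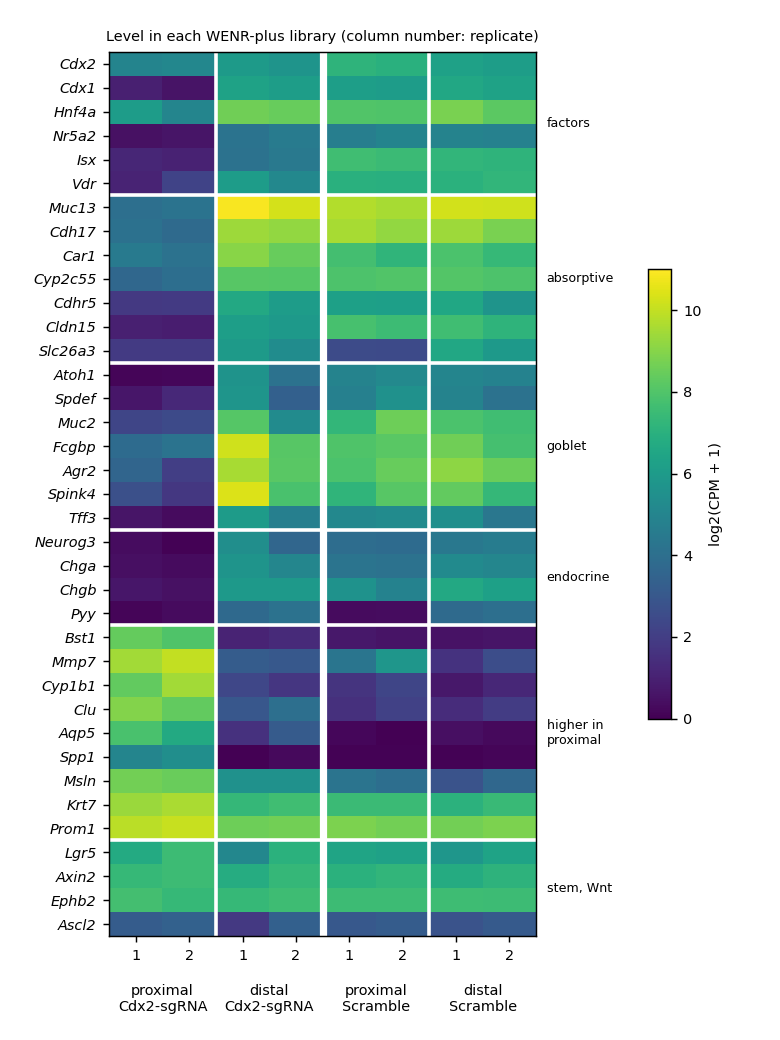
Levels of 37 genes, log2(CPM + 1), in each of the 8 WENR-plus libraries, with 1 column per library in the order proximal Cdx2-sgRNA, distal Cdx2-sgRNA, proximal Scramble-sgRNA and distal Scramble-sgRNA, and rows grouped by role. In the rows of factors and of absorptive, goblet and endocrine genes the proximal Cdx2-sgRNA columns are darker (lower) than the distal Cdx2-sgRNA columns. Cdx1 is at 0.928 and 0.476 CPM against 80.4 and 68.7 CPM in distal columns, and Slc26a3 and Pyy are low in both proximal groups. Rows such as Bst1 and Mmp7 show the opposite order of the Cdx2-sgRNA columns.

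Hox genes, which mark position along the gut, differed between the regions of Cdx2-sgRNA organoids. Of 26 tested Hox genes and cluster RNAs, 10 were higher and 14 lower in proximal organoids (median −5.63, or −2.99 with members at the read floor set to their bound), beside 9 higher and 7 lower in Scramble-sgRNA organoids. All 13 tested members of the Hoxa cluster fell, of which 6 also fell in the control comparison. The calls of Hoxa4 and Hoxa6 rested on few reads. With 0 reads in both proximal libraries, Hoxa4 had 11 and 7 and Hoxa6 had 13 and 19 reads in the distal libraries. In the Hoxb cluster 7 of 9 tested members rose and Hoxb13 fell, as in the controls with 7 and 1. In the Hoxd cluster 3 of 4 tested members rose, and 2 did in the controls. No Hoxc gene passed the filter on low counts.

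Among the Hoxa genes, Hoxa9 was at 0.0580 and 0.0529 CPM in proximal and 37.5 and 41.3 CPM in distal libraries (adjusted p = 3.08e-07), and at 0.239 and 0.118 CPM in proximal and 23.0 and 22.7 CPM in distal Scramble-sgRNA organoids. Hoxa13 was at 0.580 and 0.423 CPM in proximal and 38.3 and 51.3 CPM in distal libraries (log2 fold change −6.47, adjusted p = 2.72e-06), beside 0.382 and 0.888 CPM in proximal and 35.5 and 37.2 CPM in distal controls. These posterior genes were split by region with either guide. Anterior members were not called between the control regions. Hoxa3 was at 0 and 0.106 CPM in proximal and 6.94 and 7.93 CPM in distal libraries (adjusted p = 5.55e-05), beside 6.02 and 3.96 CPM in proximal and 8.16 and 6.18 CPM in distal Scramble-sgRNA organoids, and its region effect differed between the guides (adjusted p = 0.0012). Hoxa5 was at 0 and 0.159 CPM in proximal and 4.53 and 9.36 CPM in distal libraries (adjusted p = 0.000529), beside 2.34 and 1.83 CPM in proximal controls, with a difference between guides at adjusted p = 0.0265. Such a difference was called for 5 of the 13 Hoxa members, beside 4.98% of all tested genes. The cluster RNA Hottip, which lies next to Hoxa13, was at 0.0580 and 0.0529 CPM in proximal and 14.3 and 14.3 CPM in distal libraries (adjusted p = 2.8e-06).

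In the Hoxb cluster, Hoxb9 was at 158 and 147 CPM in proximal and 11.2 and 11.6 CPM in distal libraries (log2 fold change 3.74, adjusted p = 1.13e-06), and the region effect of this gene was larger than in Scramble-sgRNA organoids by 1.88 on the log2 scale (adjusted p = 0.00293). Hoxb6 was at 67.8 and 75.7 CPM in proximal and 0.401 and 1.64 CPM in distal libraries (log2 fold change 6.11, adjusted p = 1.86e-05). Hoxb8, whose promoter is shown above, was at 20.1 and 26.1 CPM in proximal and 0.172 and 0.106 CPM in distal libraries (log2 fold change 7.31, adjusted p = 5.82e-06). Hoxb13, the most posterior gene of the cluster, ran the other way, at 0.928 and 0.740 CPM in proximal and 156 and 87.2 CPM in distal libraries (log2 fold change −7.18, adjusted p = 2.45e-07). In the Hoxd cluster, Hoxd8 was at 9.10 and 22.9 CPM in proximal and 0 and 0 CPM in distal libraries, at least 198-fold higher (adjusted p = 7.69e-05), a bound set by 3 counts over the distal pair.

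**Figure D3:**
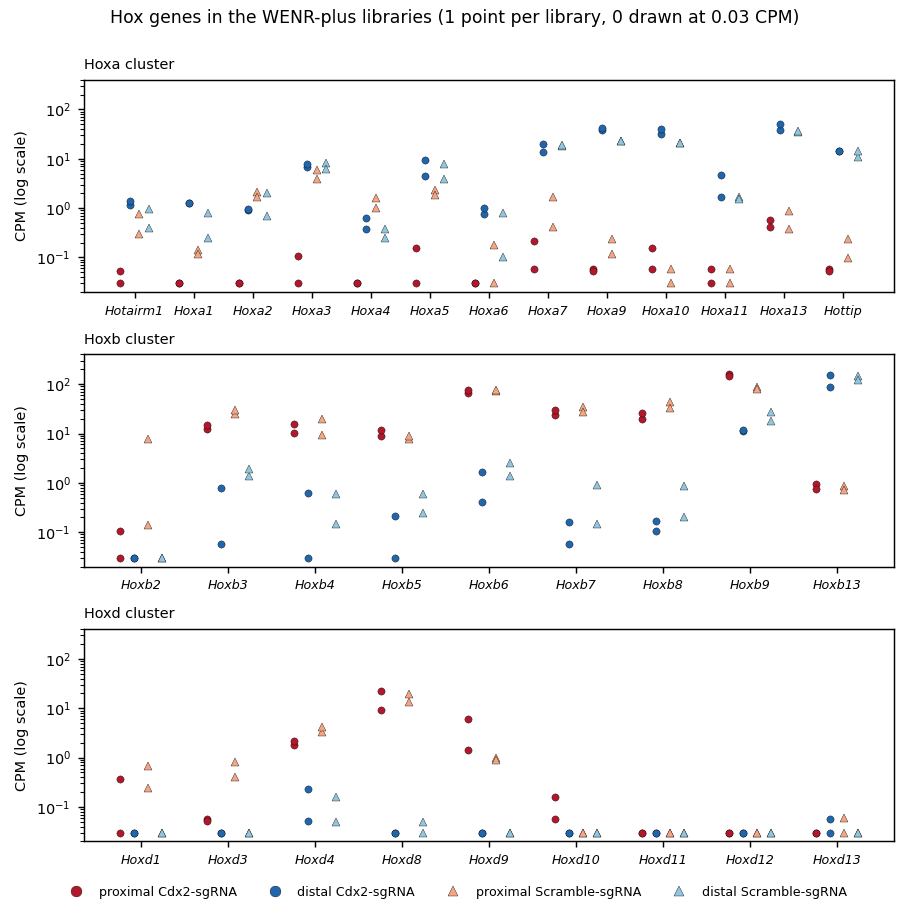
Levels of Hoxa, Hoxb and Hoxd genes in CPM on a log axis, with 1 point for each of the 8 WENR-plus libraries, circles for Cdx2-sgRNA and triangles for Scramble-sgRNA organoids, and a level of 0 drawn at 0.03 CPM. Distal circles lie above proximal circles in the Hoxa row, and proximal circles above distal ones from Hoxb3 to Hoxb9 in the Hoxb row, unlike Hoxb13, where the distal libraries held 156 and 87.2 CPM.

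Of 27 tested regional regulators outside the Hox clusters, 7 rose and 6 fell (median 0.93, or 0.56 without proximal replicate 1 and 0.56 without proximal replicate 2), beside 5 and 1 in the Scramble-sgRNA comparison. Higher calls numbered 3 without distal replicate 1 and 4 without distal replicate 2. Genes that were high in proximal controls were among those that rose. Osr2, a zinc finger factor, was at 28.4 and 28.8 CPM in proximal and 0.115 and 0.423 CPM in distal libraries (log2 fold change 6.67, SE 0.49, adjusted p = 5.72e-06) and at 39.1 and 26.8 against 0.150 and 0.0538 CPM in Scramble-sgRNA organoids. Tbx3, a T-box repressor, was at 20.7 and 28.0 CPM in proximal and 0.229 and 0.317 CPM in distal libraries (log2 fold change 6.43, SE 0.51, adjusted p = 1.05e-05), beside 47.7 and 41.8 against 0.350 and 0.215 CPM in the controls. The zinc finger gene Zfp503 was at 15.9 and 23.1 CPM in proximal and 0.0573 and 0.106 CPM in distal libraries (a proximal to distal ratio of 238, counting interval 81.2 to 1158, adjusted p = 5.26e-06). In all 3 the proximal libraries of either guide lay above the distal libraries of either guide. Foxd2, a forkhead factor, was at 0.522 and 0.899 CPM in proximal and 36.1 and 37.3 CPM in distal libraries (log2 fold change −5.67, SE 0.67, adjusted p = 0.000184), while both control regions held 35.4 and 33.3 (proximal) and 45.5 and 38.8 CPM (distal).

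Genes of a fetal or regenerating epithelium were higher in proximal organoids for part of the list. Of 38 tested fetal and regenerative genes 12 rose and 4 fell (median 0.74, or 0.28 without proximal replicate 1), beside 1 and 1 in the Scramble-sgRNA comparison. The higher calls numbered 6 without distal replicate 1, and the lower calls 2 without proximal replicate 2 and 1 without distal replicate 2. Clu, a secreted chaperone of revival stem cells, was at 498 and 322 CPM in proximal and 6.88 and 15.2 CPM in distal libraries (log2 fold change 5.21, SE 0.46, adjusted p = 2.34e-05), and between 1.60 and 3.43 CPM in the Scramble-sgRNA libraries. Msln, or mesothelin, a surface glycoprotein, was at 400.3 and 356 CPM in proximal and 46.7 and 46.1 CPM in distal libraries (log2 fold change 3.03, SE 0.30, adjusted p = 5.65e-05). Spp1, the secreted phosphoprotein osteopontin, was at 31.0 and 42.5 CPM in proximal and 0 and 0.212 CPM in distal libraries (log2 fold change 8.30, SE 0.67, adjusted p = 1.22e-05). Each of these had its proximal pair above all other WENR-plus libraries. Ly6a, or Sca-1, the regenerative marker, was at 140.3 and 185 CPM in proximal and 211 and 237 CPM in distal libraries.

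Of 11 tested gastric genes 5 rose and 2 fell (median 1.12). Called higher without distal replicate 2 were 3, and the median was −0.13 without proximal replicate 1 and 1.79 without proximal replicate 2. Aqp5, a water channel of pyloric gland cells, was at 226 and 103 CPM in proximal and 2.01 and 7.88 CPM in distal libraries (log2 fold change 5.05, SE 0.76, adjusted p = 0.000807). Ctse, cathepsin E of gastric epithelium, was at 6.21 and 10.1 CPM in proximal and 1.83 and 0.423 CPM in distal libraries (log2 fold change 2.86, SE 0.74, adjusted p = 0.0149) and was not called without proximal replicate 2 (adjusted p = 0.0753) or distal replicate 2 (adjusted p = 0.106). The foregut factor gene Sox2, which defines the list, was at 0 and 0 CPM in proximal and 0 and 0 CPM in distal libraries. Of 22 tested stratified epithelium genes 3 rose and 7 fell (median −0.72, or −0.45 with members at the read floor set to their bound, or −1.75 without proximal replicate 1, −0.28 without distal replicate 1 and −1.23 without proximal replicate 2). The lower calls numbered 4 without distal replicate 1 and 3 without proximal replicate 2. Krt80, a keratin of differentiated squamous cells, was at 16.5 and 22.9 CPM in proximal and 0.974 and 1.59 CPM in distal libraries (log2 fold change 3.93, SE 0.74, adjusted p = 0.00297), whereas Lor, loricrin of the cornified envelope, was at 0 and 0 CPM in proximal and 10.1 and 3.44 CPM in distal libraries (at least 79.9-fold lower, adjusted p = 0.00153).

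Other genes called higher in proximal organoids came from several roles. Bst1, or CD157, an enzyme that makes cyclic ADP-ribose (chr5:43818885-43843986), was at 332 and 253 CPM in proximal and 1.15 and 1.48 CPM in distal libraries (log2 fold change 7.79, SE 0.31, adjusted p = 1.52e-07), and between 0.451 and 0.621 CPM in the Scramble-sgRNA libraries. Mmp7, or matrilysin (chr9:7692090-7699585), was at 716 and 1031 CPM in proximal and 8.08 and 7.19 CPM in distal libraries (log2 fold change 6.84, SE 0.78, adjusted p = 0.000142), with controls at 18.5 and 53.9 (proximal) and 2.05 and 5.05 CPM (distal). Cyp1b1, a cytochrome P450 that responds to aryl hydrocarbons, was at 328 and 706 CPM in proximal and 4.01 and 2.33 CPM in distal libraries (log2 fold change 7.35, SE 0.51, adjusted p = 4.23e-06). Il18r1, a receptor chain for interleukin 18, was at 32.9 and 27.7 CPM in proximal and 0.0573 and 0.0529 CPM in distal libraries (a proximal to distal ratio of 548, counting interval 151 to 4534, adjusted p = 5.23e-05). The signals Bmp4 and Inhbb belong to the TGF-beta superfamily. Bmp4 was at 51.9 and 51.0 CPM in proximal and 0.287 and 0.476 CPM in distal libraries (log2 fold change 7.04, SE 0.53, adjusted p = 7.52e-06). Inhbb, a subunit of activin B, was at 19.0 and 55.6 CPM in proximal and 0 and 0.0529 CPM in distal libraries (a proximal to distal ratio of 1386, counting interval 248 to 54800.0, adjusted p = 0.000131). All 6 genes were called without any 1 of the libraries.

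For some higher calls most of the proximal level lay in proximal replicate 2. Sox17, an endoderm factor, was at 0.290 and 52.2 CPM in proximal and 0 and 0.106 CPM in distal libraries (a proximal to distal ratio of 499, counting interval 138 to 4128, adjusted p = 0.0328), and had an adjusted p of 0.593 without proximal replicate 2. It also missed the threshold without distal replicate 1 (adjusted p = 0.165) or distal replicate 2 (adjusted p = 0.131). Jam2, a junction protein, was at 0.638 and 22.4 CPM in proximal and 0 and 0 CPM in distal libraries, Flt1, a VEGF receptor, at 0.638 and 19.9 CPM in proximal and 0 and 0 CPM in distal libraries, and Frem2, a basement membrane protein, at 2.20 and 11.9 CPM in proximal and 0 and 0 CPM in distal libraries. Their adjusted p without proximal replicate 2 was 0.0896, 0.124 and 0.0662. Without distal replicate 1 it was 0.0695, 0.0936 and 0.0805, and without distal replicate 2 it was 0.0657, 0.089 and 0.0768. In these 4 genes proximal replicate 1 was much nearer to the distal libraries than proximal replicate 2. Over all called genes 1149 of 2595 calls (372 higher and 777 lower) held without each of the 4 libraries in turn.

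Stem cell genes were called in both directions. Of 23 tested crypt base stem cell genes 3 rose and 4 fell (median −0.61, or −0.27 without proximal replicate 1 and −0.40 without distal replicate 2). Without proximal replicate 2 there was 1 higher call and 5 lower calls. Lgr5, the R-spondin receptor that marks crypt base stem cells, was at 105 and 187 CPM in proximal and 33.1 and 129 CPM in distal libraries (log2 fold change 0.85, SE 0.58, adjusted p = 0.288), with overlapping regions. Ascl2, the stem cell factor, was at 8.18 and 9.62 CPM in proximal and 2.52 and 9.42 CPM in distal libraries (log2 fold change 0.57, SE 0.57, adjusted p = 0.469). For both genes distal replicate 1 was the lowest of the 4 libraries. Smoc2, a matrix protein of the stem cell signature, was called, at 0.406 and 0.317 CPM in proximal and 14.6 and 32.5 CPM in distal libraries (log2 fold change −6.00, SE 0.97, adjusted p = 0.00121). Prom1, or CD133, was at 927 and 1086 CPM in proximal and 376 and 399 CPM in distal libraries (log2 fold change 1.38, SE 0.20, adjusted p = 0.000653) and was called in the opposite direction. Slc12a2, a chloride cotransporter of crypt cells, was at 321 and 149.6 CPM in proximal and 856 and 975 CPM in distal libraries (log2 fold change −1.96, SE 0.41, adjusted p = 0.0054).

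Of 20 tested Wnt target genes 7 rose and 4 fell (median 0.43). The called targets named here, Rnf43, Notum and Cd44, are among the 7 that rose, and the 4 that fell are not described. Axin2, a negative regulator induced by Wnt, was at 164 and 186 CPM in proximal and 112 and 158 CPM in distal libraries (log2 fold change 0.37, SE 0.32, adjusted p = 0.399). Ephb2, which keeps crypt cells in place, was at 211 and 163 CPM in proximal and 162 and 193 CPM in distal libraries (log2 fold change 0.072, SE 0.21, adjusted p = 0.827); neither was called. Rnf43, a ubiquitin ligase that removes Wnt receptors, was at 280.1 and 398 CPM in proximal and 89.4 and 133 CPM in distal libraries (log2 fold change 1.61, SE 0.32, adjusted p = 0.00415). Notum, which inactivates Wnt ligands, was at 6.73 and 5.02 CPM in proximal and 0.344 and 0.317 CPM in distal libraries (log2 fold change 4.12, SE 0.57, adjusted p = 0.000501). Cd44 was called higher in proximal organoids (log2 fold change 1.32, SE 0.35, adjusted p = 0.0167), though not without proximal replicate 2 (adjusted p = 0.118) or distal replicate 1 (adjusted p = 0.12). Among 9 tested Wnt ligands and secreted antagonists 3 rose and 2 fell (median 1.74, or 1.03 without proximal replicate 1 and 3.92 without distal replicate 1). The ligand gene Wnt7b was at 31.5 and 15.7 CPM in proximal and 1.20 and 0.476 CPM in distal libraries (log2 fold change 4.81, SE 0.64, adjusted p = 0.000549). Wnt10a was at 7.19 and 3.97 CPM in proximal and 0.0573 and 0.370 CPM in distal libraries (log2 fold change 4.64, SE 0.77, adjusted p = 0.00188). The proximal pair was above the distal pair for both ligands, beside controls between 0.0478 and 0.296 CPM. Of 17 tested Eph and ephrin genes 1 (5.88%) rose and 1 (5.88%) fell, below the 7.40% and 9.57% over all tested genes. Their median was −0.14, or −0.06 without proximal replicate 1, −0.23 without distal replicate 1, 0.06 without proximal replicate 2 and 0.21 without distal replicate 2. The gene that fell was Ephb4 (log2 fold change −1.35, SE 0.16, adjusted p = 0.000216). Epha3, which rose, had 0.0580 and 7.03 CPM in the proximal libraries and was not called without proximal replicate 2 (adjusted p = 0.761), distal replicate 1 (adjusted p = 0.121) or distal replicate 2 (adjusted p = 0.085).

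Cell cycle genes had lower medians in proximal organoids, with few calls. Of 43 tested S phase genes 6 fell and none rose (median −0.77), and of 54 G2/M genes 4 fell and 1 rose (median −0.44, or −0.28 without distal replicate 2). Over all tested genes 9.57% were lower, and the share of the G2/M list was 7.41%, below it. S phase calls numbered 1 without proximal replicate 2, 3 without distal replicate 2 and 13 without proximal replicate 1. Lower G2/M calls numbered 0 without proximal replicate 2, 1 without distal replicate 1 and 2 without distal replicate 2. Mki67, the proliferation antigen, was at 269.8 and 273 CPM in proximal and 548 and 769 CPM in distal libraries (log2 fold change −1.28, SE 0.40, adjusted p = 0.0326). Its call was lost when any 1 of the 4 libraries was left out (adjusted p between 0.0608 and 0.165). Pcna, the replication clamp, was at 116 and 74.5 CPM in proximal and 128 and 162 CPM in distal libraries and was not called. Among 28 tested p53 targets and cell cycle inhibitors 2 (7.14%) rose and 2 (7.14%) fell, below the 7.40% and 9.57% over all tested genes. Their median was −0.02, or −0.41 without proximal replicate 1, 0.43 without proximal replicate 2 and 0.04 without distal replicate 2. Cdkn1a, or p21, was at 37.5 and 23.2 CPM in proximal and 36.3 and 34.2 CPM in distal libraries without a call. Of 32 tested genes of EGF and MAPK output 3 (9.38%) rose and 2 (6.25%) fell, near the shares over all tested genes. Their median was −0.28, or −0.12 without proximal replicate 2 and −0.07 without distal replicate 2. Ereg, an EGF receptor ligand, was at 31.2 and 5.92 CPM in proximal and 0.172 and 0.106 CPM in distal libraries (log2 fold change 7.0, SE 1.09, adjusted p = 0.000979) and was split by region in the controls, at 45.9 and 67.6 (proximal) and 0.250 and 0.323 CPM (distal). Errfi1, a feedback inhibitor of that receptor, was at 216 and 106 CPM in proximal and 48.1 and 53 CPM in distal libraries (log2 fold change 1.67, SE 0.36, adjusted p = 0.00608).

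Among metabolic groups, cholesterol synthesis was lower in proximal organoids for 9 of 24 tested genes, with none higher (median −0.95). That count was 2 without proximal replicate 2, 4 without distal replicate 1, 4 without distal replicate 2 and 16 without proximal replicate 1. Stard4, a sterol carrier, was at 88.9 and 77.1 CPM in proximal and 259 and 256 CPM in distal libraries (log2 fold change −1.63, SE 0.19, adjusted p = 0.000176). The mevalonate enzyme gene Mvd was at 19.8 and 17.0 CPM in proximal and 43.4 and 43.0 CPM in distal libraries (log2 fold change −1.23, SE 0.25, adjusted p = 0.00466). Of 27 tested genes of fatty acid oxidation and ketogenesis 5 fell and 1 rose (median −0.33, or −0.21 without proximal replicate 1), the lower calls numbering 3 without distal replicate 1, with the carnitine carrier gene Slc25a20 at 11.3 and 11.7 CPM in proximal and 38.2 and 27.7 CPM in distal libraries (log2 fold change −1.52, SE 0.27, adjusted p = 0.00199).

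Of 29 tested cytochrome P450 genes 10 fell and 4 rose (median −0.90, or −0.42 without distal replicate 1). Higher calls numbered 2 without distal replicate 1 and 2 without proximal replicate 2. Cyp1a1, which like Cyp1b1 is induced through the aryl hydrocarbon receptor, was at 0.870 and 0.264 CPM in proximal and 74.3 and 37.4 CPM in distal libraries (log2 fold change −6.62, SE 0.64, adjusted p = 4.23e-05), so the 2 genes moved in opposite directions. Of 52 tested genes of conjugation and antioxidant defence 8 rose and 7 fell (median 0.15). Leaving out 1 library gave 4 or 5 higher calls in each case and, without proximal replicate 2, 4 lower calls; the median was −0.48 without proximal replicate 1 and 0.07 without distal replicate 2. Gsto1, a glutathione transferase, was at 848 and 651 CPM in proximal and 239.9 and 223 CPM in distal libraries (log2 fold change 1.70, SE 0.17, adjusted p = 6.36e-05). Aldh3a1, an aldehyde dehydrogenase, was at 113 and 37.4 CPM in proximal and 1.15 and 2.70 CPM in distal libraries (log2 fold change 5.28, SE 0.83, adjusted p = 0.00104). The carboxylesterase gene Ces2c ran the other way, at 0.870 and 0.740 CPM in proximal and 24.9 and 16.6 CPM in distal libraries (log2 fold change −4.68, SE 0.59, adjusted p = 0.00028). Of 21 tested genes of retinoid metabolism 5 rose and 4 fell (median 0.54, or 0.16 without proximal replicate 1, 1.16 without distal replicate 1 and 0.07 without proximal replicate 2). There were 3 higher calls without distal replicate 2 and 2 lower calls without proximal replicate 2. Aldh1a1, which makes retinoic acid, was at 213 and 111 CPM in proximal and 34.2 and 20.5 CPM in distal libraries (log2 fold change 2.57, SE 0.36, adjusted p = 0.000538). Stra6, a retinol transporter, was at 18.9 and 35.6 CPM in proximal and 3.15 and 1.06 CPM in distal libraries (log2 fold change 3.70, SE 0.56, adjusted p = 0.000852). Of 32 tested genes of hypoxia and glycolysis 4 rose and 1 fell (median 0.32), with 2 higher calls without distal replicate 1 or without proximal replicate 2, including P4ha2, a collagen prolyl hydroxylase, at 107 and 118 CPM in proximal and 20.4 and 21.5 CPM in distal libraries (log2 fold change 2.42, SE 0.25, adjusted p = 6.9e-05).

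Barrier and defence genes were lower for part of the list. Of 31 tested host defence genes 9 fell and 2 rose (median −1.1, or −0.99 with members at the read floor set to their bound, or −1.98 without proximal replicate 1, −0.55 without distal replicate 1, −1.79 without proximal replicate 2 and −1.80 without distal replicate 2). Without proximal replicate 2 the lower calls numbered 5. Pigr, which carries immunoglobulin A into the lumen, was at 179 and 490.1 CPM in proximal and 2109 and 1890.2 CPM in distal libraries (log2 fold change −2.58, SE 0.48, adjusted p = 0.00284). Lypd8, an anti-flagellar protein of the colon surface, was at 50.2 and 31.0 CPM in proximal and 568 and 403 CPM in distal libraries (log2 fold change −3.58, SE 0.60, adjusted p = 0.00148). The mucosal chemokine gene Ccl28 was at 6.5 and 2.06 CPM in proximal and 78.4 and 98.9 CPM in distal libraries (log2 fold change −4.38, SE 0.55, adjusted p = 0.000263). In these 3 genes each proximal library was below each of the 6 other WENR-plus libraries. Of 27 tested MHC class II and interferon genes 2 (7.41%) rose and 2 (7.41%) fell (median 0.50), near or below the 7.40% and 9.57% over all tested genes. Without proximal replicate 1 there were 6 lower calls and a median of −0.48. Of 34 tested genes of claudins and adhesion 6 fell and 4 rose (median −0.35, or −0.68 without proximal replicate 1, −0.20 without proximal replicate 2 and −0.21 without distal replicate 2). Cldn15, a pore-forming claudin, was at 0.928 and 0.846 CPM in proximal and 70.0 and 61.7 CPM in distal libraries (log2 fold change −6.20, SE 0.34, adjusted p = 7.53e-07). Lama3, a laminin chain, was at 134 and 51.1 CPM in proximal and 6.25 and 5.45 CPM in distal libraries (log2 fold change 3.98, SE 0.72, adjusted p = 0.00235).

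The epithelial list was lower for 4 of 13 tested members and higher for none (median −0.68). Krt8 was at 1106 and 603 against 1079 and 1134 CPM and Krt18 at 612 and 528 against 376 and 431 CPM, and neither was called, whereas Krt7, a keratin of simple ducts, was at 649.9 and 785 CPM in proximal and 161 and 199 CPM in distal libraries (log2 fold change 2.00, SE 0.26, adjusted p = 0.000313). Cldn7, a claudin of the lateral membrane, was at 80.4 and 56.7 CPM in proximal and 176 and 170.1 CPM in distal libraries (log2 fold change −1.33, SE 0.20, adjusted p = 0.000889). Among the markers of other cell types, 3 of 5 tested mesenchymal genes fell and 1 rose (median −5.91), 1 of 4 immune genes fell and 1 rose (median 0.73), and 2 of 5 endothelial and neural genes fell and none rose (median −2.31, or −2.23 with members at the read floor set to their bound, or −4.74 without proximal replicate 1 and −1.05 without distal replicate 1). Vim, or vimentin, was at 0.174 and 0 CPM in proximal and 5.73 and 5.87 CPM in distal libraries (a ratio of distal to proximal of 70.0, counting interval 23.6 to 342, adjusted p = 0.00159). Fn1 was at 139 and 36.7 CPM in proximal and 6.82 and 1.32 CPM in distal libraries (log2 fold change 4.43, SE 1.09, adjusted p = 0.0115), a call lost without proximal replicate 1 (adjusted p = 0.0594) or distal replicate 2 (adjusted p = 0.0784). The part of other cells in the results was not tested. Over the gene lists, counts of 1 to 3 calls in a direction ranged between 0 and 6 when 1 of the 4 libraries was left out.

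**Figure D4:**
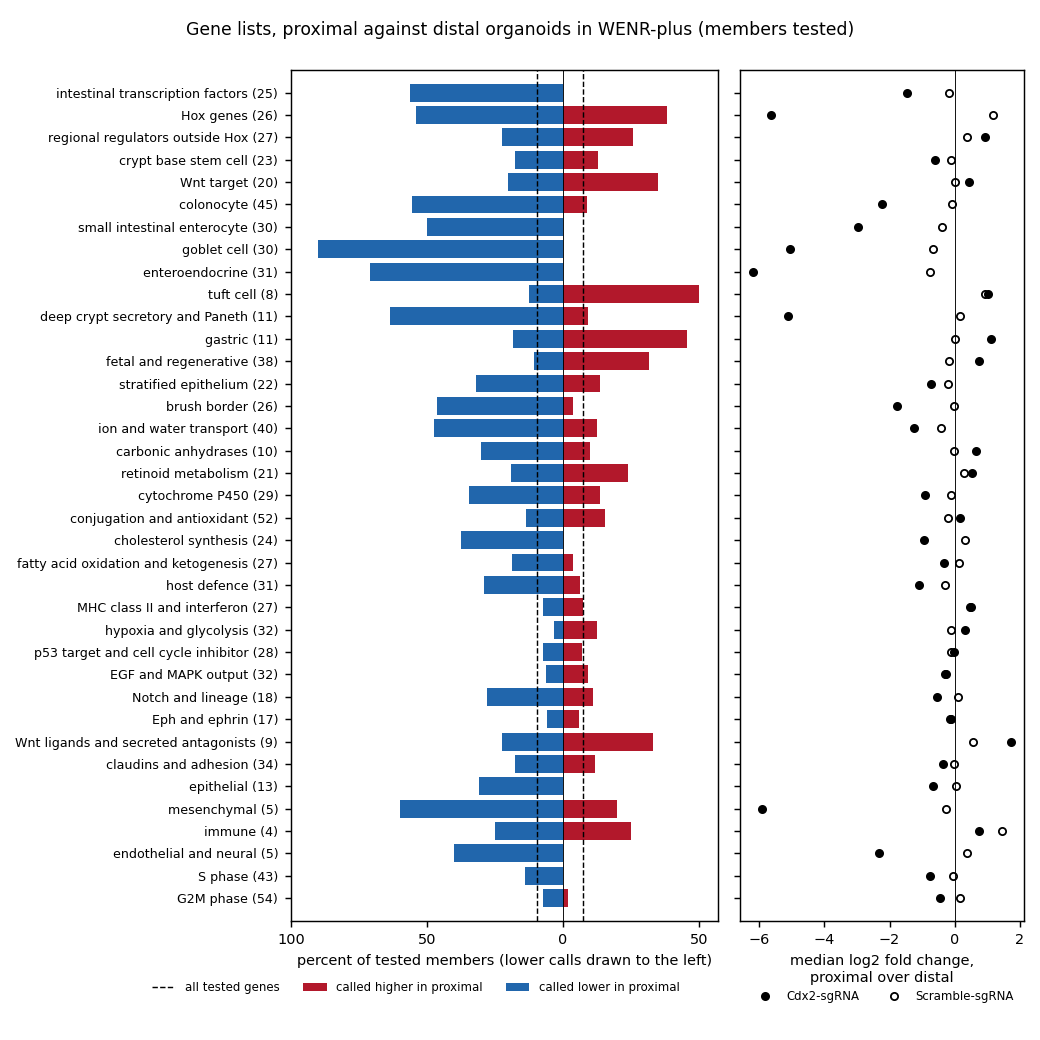
For 37 gene lists (members tested in brackets), the left panel shows the percentage of tested members called higher (red, to the right) or lower (blue, to the left) in proximal Cdx2-sgRNA organoids, with dashed lines at 7.40% and 9.57%, the shares over all tested genes. The right panel shows the median log2 fold change of proximal over distal organoids for Cdx2-sgRNA (filled) and Scramble-sgRNA (open) in WENR-plus, where the goblet cell list has −5.04 and −0.68.

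Cma1, a chymase, had one of the lowest fold changes of all, at 1.16 and 0.476 CPM in proximal and 1191 and 176 CPM in distal libraries (log2 fold change −9.71, SE 1.41, adjusted p = 0.000661), and distal replicate 1 held most of its RNA. Gal3st2, a sulfotransferase that acts on mucin sugars, was at 0 and 0 CPM in proximal and 75.7 and 12 CPM in distal libraries (at least 513-fold lower, adjusted p = 0.00313). Piwil4, a member of the Argonaute family, was at 0 and 0 CPM in proximal and 6.31 and 5.61 CPM in distal libraries (at least 71.6-fold lower, adjusted p = 0.00018). The Gal3st2 and Piwil4 folds are bounds set by 3 counts over the proximal pair. At the other end, Wdr72 was at 8.23 and 14.8 CPM in proximal and 0 and 0 CPM in distal libraries (at least 141-fold higher, adjusted p = 8.8e-05). Trib2, a pseudokinase, was at 11.7 and 9.78 CPM in proximal and 0 and 0 CPM in distal libraries (at least 129-fold higher, adjusted p = 0.000217). In all, 327 of the lower calls had 0 to 3 reads over the proximal pair and 184 of the higher calls 0 to 3 reads over the distal pair.

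The most abundant genes with a call were ranked by their mean level in the 4 libraries. Bsg, or basigin, a partner of lactate transporters, was at 4261 and 4901 CPM in proximal and 1743 and 2020.4 CPM in distal libraries (log2 fold change 1.28, SE 0.26, adjusted p = 0.00469). Bnip3, a mitophagy receptor induced by hypoxia, was at 1059.6 and 1349.9 CPM in proximal and 454 and 507 CPM in distal libraries (log2 fold change 1.33, SE 0.26, adjusted p = 0.00394). S100a10, a partner of annexin A2, was at 1094 and 739 CPM in proximal and 334 and 361 CPM in distal libraries (log2 fold change 1.40, SE 0.30, adjusted p = 0.00544). In the lower direction, Ceacam1, an adhesion molecule of the apical surface, was at 309.6 and 292 CPM in proximal and 1554 and 1239 CPM in distal libraries (log2 fold change −2.22, SE 0.23, adjusted p = 7.14e-05). Tax1bp1, an autophagy adaptor, was at 389.8 and 386 CPM in proximal and 1241 and 1363 CPM in distal libraries (log2 fold change −1.75, SE 0.16, adjusted p = 3.58e-05). Actg1, cytoplasmic actin, was at 1276 and 820.0 CPM in proximal and 2359 and 2408 CPM in distal libraries (log2 fold change −1.19, SE 0.25, adjusted p = 0.00575), and its call was lost without proximal replicate 2 (adjusted p = 0.0516). Rpl32 and Fau, which encode ribosomal proteins and belong to families with many processed pseudogenes, were at 647 and 1056 against 362 and 468 CPM and 538 and 958 against 325 and 404 CPM, and are uncertain. Both calls were lost without proximal replicate 2 (adjusted p = 0.233 and 0.339), distal replicate 1 (0.176 and 0.209) or distal replicate 2 (0.0716 and 0.107).

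The test of whether the region effect depends on the guide compared proximal against distal Cdx2-sgRNA organoids with proximal against distal Scramble-sgRNA organoids, all in WENR-plus. The guide and the cloning of the Cdx2-sgRNA cultures cannot be told apart in this test. The region effects differed for 762 genes, 4.98% of those tested, and the ratio of proximal to distal organoids was higher with the Cdx2-sgRNA for 187 of them (1.22% of tested genes) and lower for 575 (3.76%). Without distal Scramble-sgRNA replicate 2, distal Cdx2-sgRNA replicate 1 or proximal Scramble-sgRNA replicate 1 or 2, the number fell to 360, 401, 414 and 457. Lower ratios were called for 12 of 25 intestinal transcription factors, 17 of 45 colonocyte genes, 16 of 30 goblet genes and 14 of 31 enteroendocrine genes. Higher ratios were called for 8 of 38 fetal and regenerative genes. For Cdx1 the difference was −6.38 (SE 0.36, adjusted p = 3.08e-06) and for Hnf4a −2.37 (SE 0.41, adjusted p = 0.00722) on the log2 scale, Cdx2-sgRNA minus Scramble-sgRNA. Car1 differed by −4.26 (SE 0.52, adjusted p = 0.000928), and Muc2 by −5.49 (SE 1.09, adjusted p = 0.0137). For these 4 genes the region effect in Scramble-sgRNA organoids was small and not called, at −0.35, −0.57, −0.19 and 0.27.

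Cdx2 itself differed by −1.72 (SE 0.28, adjusted p = 0.00499), with the proximal region higher in Scramble-sgRNA organoids and lower in Cdx2-sgRNA organoids. Genes named by the size of the difference included Bst1, at 7.62 (SE 0.54, adjusted p = 1.65e-05). Bmp4 had means of 51.4 ± 0.657 CPM (SD, n = 2) in proximal and 0.381 ± 0.134 CPM in distal Cdx2-sgRNA organoids, and of 0.0888 ± 0.126 and 0.204 ± 0.136 CPM in proximal and distal Scramble-sgRNA organoids (adjusted p of the difference = 0.00116). Myt1, a zinc finger factor of endocrine progenitors, had means of 0 ± 0, 6.71 ± 4.93, 3.79 ± 1.17 and 6.28 ± 0.170 CPM in the same order (adjusted p = 0.0015), so that the proximal Cdx2-sgRNA pair had no reads. A4gnt, a glycosyltransferase of gland mucins, reversed its order. It was at 15 and 12.7 CPM in proximal and 0.250 and 0.0538 CPM in distal Scramble-sgRNA organoids, and at 0.174 and 0.0529 against 4.53 and 1.48 CPM in Cdx2-sgRNA organoids (difference −11.08, SE 1.42, adjusted p = 0.00155). The call between the Cdx2-sgRNA regions was lost for A4gnt without proximal replicate 2 (adjusted p = 0.0626). Pcdh19, a protocadherin, was at 8.41 and 8.94 CPM in proximal Scramble-sgRNA organoids and at 0.115 CPM or less in the 4 Cdx2-sgRNA libraries.

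Of the 1463 genes lower in proximal Cdx2-sgRNA organoids, 117 were also called between the Scramble-sgRNA regions, 110 of them in the same direction, and of the 1132 higher genes 60 were, 54 in the same direction. Those 110 and 54 genes were among 163 lower and 104 higher calls between the Scramble-sgRNA regions. Hoxb13 was one of them, with controls at 0.860 and 0.710 (proximal) and 149 and 123 CPM (distal).

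**Figure D5:**
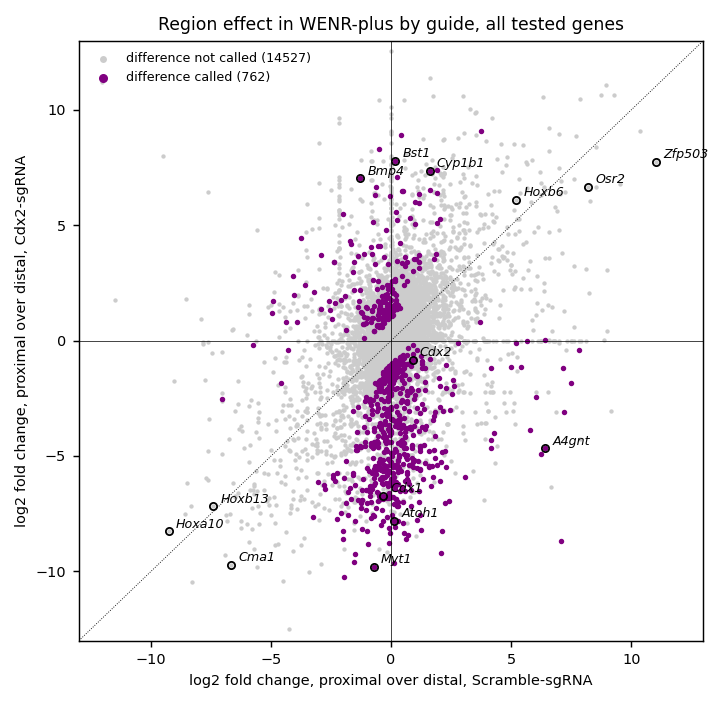
Log2 fold change of proximal over distal organoids in Cdx2-sgRNA (vertical) against Scramble-sgRNA libraries (horizontal), both in WENR-plus, for 15289 tested genes; purple points are the 762 genes whose region effects differed, and the dotted diagonal marks equal effects. Hoxa10, Hoxb13, Osr2 and Zfp503 lie far from 0 on both axes with the same sign, and Cdx1, Atoh1 and Bst1 lie far from 0 on the vertical axis and near 0 on the horizontal one.

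The last comparison addressed whether the difference between the regions depends on Wnt and the other factors in the medium. Region effects in WENR-plus and WENR-minus differed for 2684 genes (17.6%), and in WENR-minus 5291 genes (34.6%) were called between proximal and distal Cdx2-sgRNA organoids, 18.1% higher and 16.5% lower in proximal organoids. Both media came from the same cultures. The ratio of proximal to distal organoids was higher with the factors for 29 of 45 colonocyte genes, 16 of 26 brush border genes and 6 of 30 small intestinal enterocyte genes, beside 7.70% of all tested genes; it was lower with them for 9.86% of all tested genes. The brush border list had 22 lower calls in WENR-minus with a median of −4.99, the colonocyte list 38 with a median of −5.08. Muc13 was at 15.3 and 10.3 CPM in proximal and 4441 and 4289.9 CPM in distal WENR-minus libraries, and its region effect on the log2 scale, WENR-plus minus WENR-minus, differed by 1.80 (SE 0.35, adjusted p = 0.00476). Car1 was at 19.9 and 11.4 against 8574 and 7377 CPM in WENR-minus, a difference between the media of 4.54 (SE 0.53, adjusted p = 0.000495). Vil1, which was not called in WENR-plus, was at 212 and 181 against 1188 and 1436 CPM in WENR-minus (difference 2.08, SE 0.27, adjusted p = 0.000792). In each of these genes both distal libraries were higher without the factors than with them.

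Cell cycle genes had medians of opposite sign in the 2 media. In WENR-minus 32 of 43 S phase genes and 44 of 54 G2/M genes were higher in proximal organoids, with medians of 1.89 and 2.25, beside 18.1% and a median of 0.132 over all tested genes. The ratio of proximal to distal organoids was lower with the factors for 33 of the 43 and 46 of the 54. Mki67 was at 296 and 406 CPM in proximal and 53.6 and 112 CPM in distal WENR-minus libraries, and its region effects differed by −3.36 (SE 0.57, adjusted p = 0.00243). With the factors it had been at 269.8 and 273 CPM in proximal and 548 and 769 CPM in distal libraries, so the order of the regions was opposite in the 2 media. Mmp7 was nearer to the distal level without the factors, at 35.7 and 15.8 against 4.57 and 2.84 CPM (difference 4.05, SE 0.95, adjusted p = 0.0116), whereas Clu was at 1805 and 2862 against 44.7 and 48.9 CPM and its difference of −0.43 (SE 0.55, adjusted p = 0.651) was not called. Cdx1 was at 0.520 and 0.212 CPM in proximal and 70.7 and 70.5 CPM in distal WENR-minus libraries, and its difference between the media, 0.92 (SE 0.46, adjusted p = 0.194), was not called either. Lgr5 was at 3.56 and 4.44 against 1.1 and 1.67 CPM in WENR-minus, below every WENR-plus library of these cultures, and the regions were not called in either medium.

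By size of the difference between the media, Onecut2, a homeobox factor of endodermal organs, was at 29.0 and 159.7 CPM in proximal and 0.0846 and 0.753 CPM in distal WENR-minus libraries and at 1.86 and 1.22 against 0.0573 and 0.741 CPM in WENR-plus (difference −5.90, SE 1.77, adjusted p = 0.0346). Muc1, a transmembrane mucin, was at 15.1 and 138 against 26.4 and 4.27 CPM in WENR-minus and 0.754 and 1.48 against 15.6 and 12.7 CPM in WENR-plus (difference −5.97, SE 1.38, adjusted p = 0.0106), with the WENR-minus libraries overlapping. Prss30, a serine protease, was at 0 and 0 against 17.8 and 39.6 CPM in WENR-minus and at 0.174 and 0.106 against 0.115 and 0.159 CPM in WENR-plus (adjusted p of the difference = 0.0145). Cacna1e, a calcium channel, was at 0 and 0 against 5.42 and 9.12 CPM in WENR-minus (adjusted p = 0.0057). Both were restricted to the distal WENR-minus pair among these 8 libraries, apart from at most 0.174 CPM in WENR-plus.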

How the data were processed

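RNA of the 16 libraries was prepared with a stranded total RNA kit and sequenced in pairs. The authors quantified transcripts with Salmon 1.1.0 and deposited, per transcript, estimated counts and TPM, both copied from the quantifier without further filtering per the file headers; the build in the submitters' notes is mm10. Estimated counts were summed per gene with GENCODE vM21 (884 of 140748 transcripts had no match and held at most 0.509% of a library's counts) and rounded; TPM entered no test. Depth was 15806729 to 17634440 counts in the 4 libraries. Genes passing edgeR's filter on low counts were fitted with its quasi-likelihood model (R 4.3.3, edgeR 4.0.16, TMM scaling, 8 residual degrees of freedom) over all 16 libraries in 8 groups of 2, and called at an adjusted p under 0.05 with an absolute log2 fold change over 1. DESeq2 1.42.0, other scalings, filters, designs and left-out libraries were alternatives. The code was tested on simulated data.

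Members and gene lists were chosen with earlier results of these data known. Named genes were Cdx2, Cdx1 and the study's markers, the 12 highest and 12 lowest fold changes of called protein-coding genes whose higher group averaged 5 CPM or more, the 8 most abundant called genes per direction, up to 6 called members per list with the list's defining members, and the 5 highest and 5 lowest differences between region effects; the text describes a part of them. Agr2, Cd44, Foxa1, Hoxa3, Hoxa5, Hoxb3, Hoxb6, Hoxb8, Klf5, Lama3, Notch3, Pyy and Slc12a7 are further called list members, chosen after their values were seen. A group with 0 reads was given a floor of 3 counts, and groups of 1 to 3 reads an exact (Clopper-Pearson) 95% counting interval. Intervals and floors cover counting error only. The labels name biological replicates but do not say which shared a mouse.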

Additional observations from a re-analysis of the deposited data

Results flagged for a closer look

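The region effect, proximal over distal, differed between Cdx2-sgRNA and Scramble-sgRNA organoids in WENR-plus for 762 genes by edgeR's test of that difference. The guide and single-cell cloning cannot be told apart in it. Among the factors and markers, Cdx2 (adjusted p = 0.00499), Cdx1 (3.08e-06), Hnf4a (0.00722), Car1 (0.000928) and Muc2 (0.0137) had a lower ratio of proximal to distal organoids with the Cdx2-sgRNA. So did A4gnt (adjusted p = 0.00155), Pcdh19 (0.0366), Piwil4 (0.00146), Myt1 (0.0015) and Gfi1 (0.0329), a zinc finger repressor of secretory cells. The ratio was higher with the Cdx2-sgRNA for Bst1 (adjusted p = 1.65e-05), Bmp4 (0.00116), Il18r1 (0.00752), Spp1 (0.0135) and Fam167a (0.0092).

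Between WENR-plus and WENR-minus the region effect of Cdx2-sgRNA organoids differed for 2684 genes. The ratio of proximal to distal organoids was higher with the factors for Krt20 (adjusted p = 0.0107), Car1 (0.000495), Vil1 (0.000792), Cacna1e (0.0057), Ggt1 (0.0159), Prss30 (0.0145), Fam161a (0.00314) and Tchhl1 (0.0291). It was lower with the factors for Lor (adjusted p = 0.00534), Rasl11b (0.015), Chodl (0.00458), Muc1 (0.0106) and Onecut2 (0.0346). Krt20 was called higher in proximal organoids with the factors and was at 489 and 1572 CPM in proximal and 1412 and 2206 CPM in distal organoids without them. Groups of 2 libraries are too small for a test of single outlying libraries.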

How the results depend on the processing

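Of 394 tested genes that were named or called members of a list, 367 were called and 216 of these were called in every alternative that tested them; none changed direction. The 2595 calls between proximal and distal Cdx2-sgRNA organoids became 1317 with at least 10 counts in every library (10202 genes tested), 4480 with no limit on the fold change, and 1586 to 2653 when 1 of the 4 libraries was left out, the fewest without distal replicate 1. The 762 differences between the guides became 1234 with DESeq2, 1863 with no filter (27429 genes tested), 426 with at least 10 counts, and 360 to 805 with 1 library left out. The 2684 differences between the media stayed within 1.5 times under every setting, at 1884 to 2548 with 1 library left out and 3498 with the culture as a block. For Scramble-sgRNA organoids 267 calls became 538 with DESeq2, 1039 with no filter, 107 with at least 10 counts and 80 to 138 with 1 library left out, and for WENR-minus 5291 became 3366 with at least 10 counts. Fewer genes were tested under the stricter filter; the cause of the other shifts was not tested.

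With the replicate number as a block, 2728, 985, 2855, 349 and 5336 genes were called in the same order. Same-numbered proximal and distal Cdx2-sgRNA libraries in WENR-plus deviated from their group means with a correlation of 0.063 over 9908 genes. Over the 24 pairs of groups from different cultures the correlation lay between −0.081 and 0.305 and was over 0.1 in 11. Over the 4 pairs of media of the same cultures it lay between 0.447 and 0.627. The media of a culture were thus not independent, although the 8 residual degrees of freedom count them so. A fit of only the 4 Cdx2-sgRNA WENR-plus libraries called 1754 genes between the regions. The labels tie no number to a mouse, so the numbers were not taken to pair samples.

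The 2 clones per region and counts of a few reads in the lower group limit the fold changes of near-absent genes. A group left with 1 library was assumed to vary like the other groups.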
